A study of Mus musculus with 40 samples.

Results

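The arrays described here are those of week 12 and week 15 from mouse subcutaneous stromal vascular cells, 10 of the 40 arrays in the series. All arrays whose labels give 1 of these 2 weeks were taken, 5 from week 12 and 5 from week 15, and each diet has 1 array at each week, so the weeks were compared within 5 pairs. The titles of the LFC and HF20 arrays of week 12 name no week, and their week is taken from the time point label. The question is which transcripts differ between these neighbouring sampling times whatever the diet.

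The animals were C57BL/6J mice, weaned at 3 to 4 weeks of age and divided into 5 groups of 30 animals. LFC was the low-fat control diet, with 10% of its calories from fat. HFC was a high-fat, high-sucrose diet with 60% of its calories from fat. HF5, HF20 and HF75 were the high-fat diet with 5, 20 or 75 µg of Kal-1, a plant-based formulation. Animals of every group were sacrificed every 3 weeks, and weeks were counted from day 14 of the study. No label names a genetic change, a sex or the number of mice behind an array. Each array was a 1-colour Agilent 44K array, and levels are given as log2 of the processed signal minus the 75th percentile of the array. A value of 0 is therefore the level below which 75% of the array's probes lie. In every series of 5 values the order is LFC, HFC, HF5, HF20 and HF75. With 1 array per diet and week, the difference within a single diet has no replicate error. The arrays of the 2 weeks were on separate slides, so slide and week cannot be told apart.

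The stromal vascular fraction is what remains of fat tissue after the fat-filled adipocytes are removed. It holds macrophages, fibroblasts and adipocyte progenitors, endothelial cells, pericytes and lymphocytes, and in obesity it gains myeloid cells. Neutrophils are short-lived cells that enter tissue along gradients of CXC chemokines and carry the calcium-binding proteins S100a8 and S100a9 in large amounts, while macrophages are longer-lived and mark themselves with Adgre1, Mrc1 and Fcgr1.

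The labelled tissue was checked against marker lists. The macrophage list was above background with 10 of 10 genes on every array, at mean levels from 0.72 to 2.21, and its most abundant gene was Lyz2. The fibroblast and progenitor list was above background with 11 of 11 genes on every array, at mean levels from 2.70 to 3.84, with Dcn the most abundant. The endothelial list also had 9 of 9 genes above background on every array, at mean levels from 1.30 to 3.37. The series title calls the samples infiltrating macrophages, and the markers show macrophages together with stromal and endothelial transcripts. Lymph node genes were less uniform. Their list, led by Ccl19, had 3 to 5 of 5 genes above background and mean levels from -4.13 to 0.81. The adipocyte list, led by Fabp4, was above background with 12 of 12 genes on every array, although the preparation is meant to remove adipocytes.

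3 of the 10 arrays stood apart in these lists, LFC at week 12 and HF20 at both weeks. The adipocyte list had mean levels of 4.98, 2.32, 1.45, 5.54 and 1.70 at week 12 and of 1.28, 0.78, 0.05, 5.19 and 2.43 at week 15. The 3 arrays were at 4.98 or above and the other 7 at 2.43 or below. Signal saturation cut off 10, 9 and 8 of the 12 adipocyte genes on LFC week 12, HF20 week 12 and HF20 week 15, against 1 or 2 on the other arrays, so differences among the highest levels are understated. Summed over the list on the linear scale, the adipocyte levels were 448, 206, 164, 613 and 247 at week 12 and 136, 94.2, 75.5, 521 and 236 at week 15, in multiples of the array's 75th percentile. The immediate-early list had mean levels of -0.92, 3.45, 3.45, -1.04 and 2.97 at week 12 and of 3.53, 3.25, 3.60, 0.71 and 3.42 at week 15. The same 3 arrays were the lowest there. They were also the lowest for smooth muscle and pericyte genes (1.62, 1.89 and 1.82, against 3.70 to 4.46 on the others), for Schwann cell genes (-1.71, -1.36 and -1.89, against 1.03 to 2.23) and for endothelial genes (1.54, 1.36 and 1.30, against 2.53 to 3.37). For HF20 both weeks stood apart, although week 15 lay higher in immediate-early genes, and in the LFC pair only week 12 did. The titles of these 3 arrays also differ in form from most of the others, and whether they come from another kind of preparation was not tested. List medians are given below also without the LFC and HF20 pairs where that moves them, a setting chosen after the data were seen. In bulk samples, fewer cells of a type and less RNA per cell cannot be told apart.

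**Figure D1:**
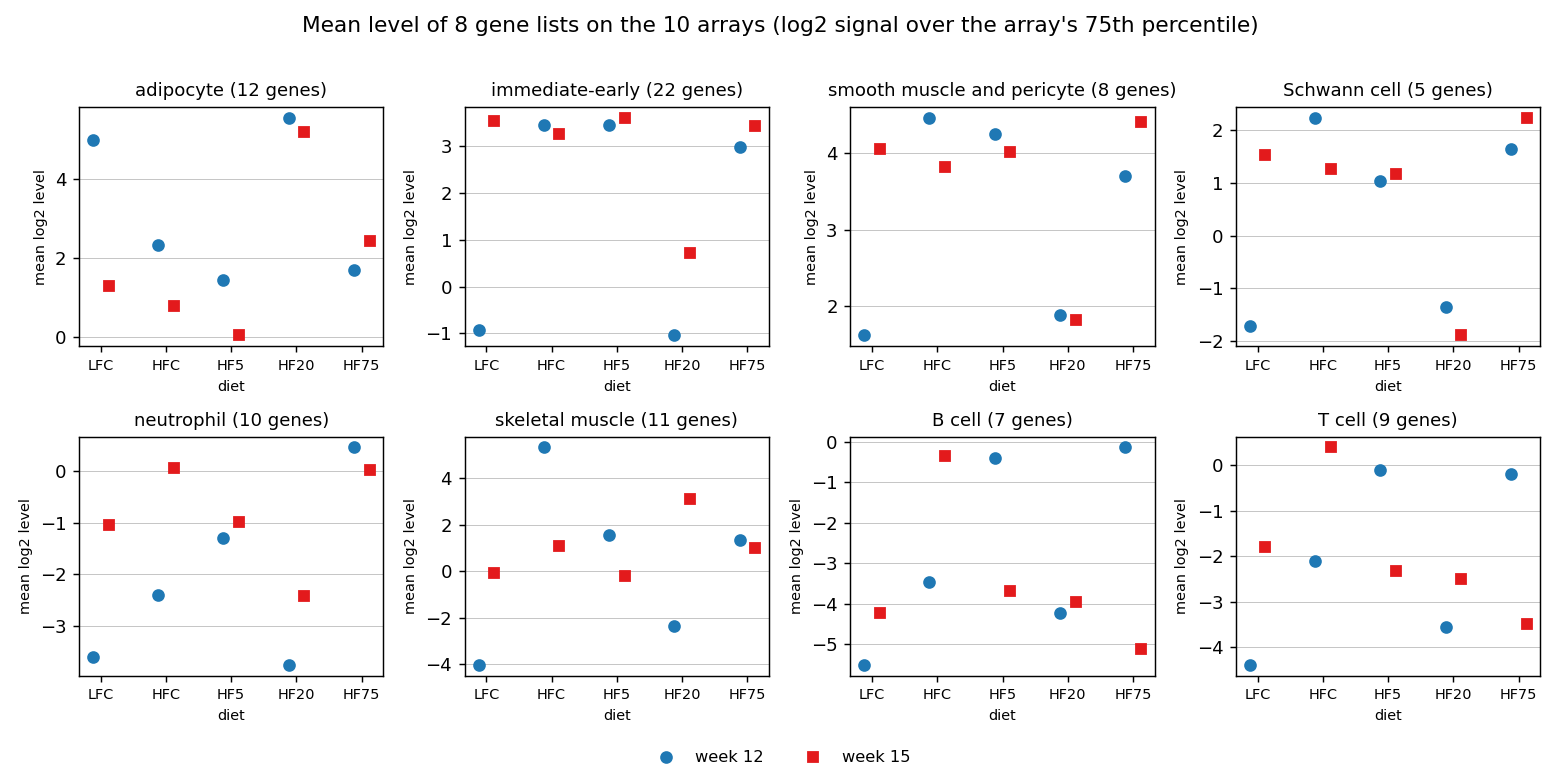
Mean log2 level (signal over the array's 75th percentile) of 8 gene lists on the 10 arrays, by diet on the horizontal axis, with circles for week 12 and squares for week 15 and 1 array behind each point. LFC at week 12 and HF20 at both weeks lie at 4.98 or above for adipocyte genes and at 0.71 or below for immediate-early genes.

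The data show genes such as S100a8, a member of the neutrophil list, and Cxcr2 that stood higher at week 15 than at week 12 in all 5 diets, and none of them passed the adjusted test. The differences, week 12 minus week 15, were -2.22 and -1.82, and for Cxcr2 -0.44 with normexp background correction. Cxcr2 is the receptor for the chemokines Cxcl1, Cxcl2 and Cxcl5. In limma with diet as a block, 0 of 21254 genes (0%) passed an adjusted p of 0.05, and the smallest adjusted p was 0.842. At an unadjusted p under 0.05 there were 921 genes (4.33%), of which 432 (2.03%) were higher at week 12 and 489 (2.30%) higher at week 15. By direction alone, 783 genes (3.68%) were higher at week 12 in 5 of 5 pairs and 728 (3.43%) were higher at week 15 in 5 of 5 pairs. These counts include genes with both arrays of a pair at the floor, such as Olfr601 in HFC and HF75. There the sign is that of the 2 floors. The count of 0 was the same in 18 other settings, with 336 to 1975 genes at an unadjusted p under 0.05 and smallest adjusted p from 0.258 to 0.997. The 1975 genes and the 0.258 came without the LFC and HF20 pairs. Without the LFC pair alone 1393 genes had an unadjusted p under 0.05 in limma, and without the HF5 pair 580. The pairs are those of the diets. The labels' replicate number was also used as the replicate block, which joins arrays of different diets except for LFC. With it 0 genes passed and 336 had an unadjusted p under 0.05. A two-sided exact sign-flip test over 5 pairs cannot go below p = 0.0625.

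10 genes per direction were named by rank of the limma statistic among genes with the same sign in 5 of 5 pairs. Of the 10 that stood higher at week 15, S100a8 alone is in the neutrophil list. 6 others (Cxcr2, Fpr2, Prok2, Lcn2, Cstdc4 and Stfa2l1) are grouped with it here as genes known from myeloid cells, by hand and after the values were seen. Of these, Lcn2 is in the list of glucocorticoid and metallothionein genes. S100a8, a subunit of the calprotectin complex of neutrophils, was at -1.73, 1.21, 0.77, -2.37 and 2.98 at week 12 and at 1.74, 2.74, 3.03, 0.15 and 4.31 at week 15. Each week 15 value lay above its week 12 partner, HF75 was the highest at both weeks and HF20 the lowest, and the weeks overlapped. The mean difference, week 12 minus week 15, was -2.22 (SE 0.36, n = 5 pairs), or 4.67-fold. Cxcr2 was at -6.85, -3.96, -3.83, -7.58 and -4.36 at week 12 and at -4.81, -3.00, -1.64, -5.16 and -2.85 at week 15. It was above background on 4 of 5 arrays at week 12. Its levels overlapped between weeks, with LFC and HF20 the lowest at both. The difference was -1.82 (SE 0.28, n = 5 pairs).

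Fpr2, a receptor for formylated bacterial peptides, was at -5.01, -3.01, -3.29, -6.44 and -2.98 at week 12 and at -2.91, -2.16, -0.59, -3.74 and -0.57 at week 15. HF20 was the lowest array at both weeks, and of the week 15 arrays HF20 alone lay within the range of week 12. The difference was -2.15 (SE 0.33, n = 5 pairs), or 4.44-fold, and -1.12 with normexp. Prok2, a secreted chemokine-like peptide of myeloid cells, was at -7.54, -5.54, -5.48, -7.96 and -3.23 at week 12 and at -5.12, -4.03, -2.49, -5.19 and 0.86 at week 15. HF75 stood highest at both weeks, and its level at week 12 exceeded that of 3 week 15 arrays. It was above background on 3 of 5 arrays at week 12 and at the floor on HF20, so no exact fold is given. The difference of raised values was -2.76 (SE 0.38, n = 5 pairs), and -0.88 with normexp.

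Lcn2 encodes lipocalin 2, a granule protein that binds bacterial siderophores. Its levels were -3.93, -3.16, -2.94, -6.25 and -2.54 at week 12 and at -1.83, -1.80, 0.21, -4.86 and 0.24 at week 15. The HF5 and HF75 arrays of week 15 lay above every other array, and HF20 was the lowest at both weeks. The difference was -2.16 (SE 0.34, n = 5 pairs), or 4.46-fold, and -1.23 with normexp. Cstdc4 and Stfa2l1 are members of the stefin A family. Cstdc4 was at -8.23, -4.50, -4.00, -7.96 and -3.21 at week 12 and at -3.41, -2.93, -0.91, -5.59 and 0.61 at week 15. On LFC and HF20 at week 12 it was at the floor of the array, the lowest level that counts as above background, so no exact fold is given. The difference of raised values was -3.14 (SE 0.48, n = 5 pairs), and -1.20 with normexp. Stfa2l1, above background on 4 of 5 arrays at week 12, differed by -2.39 (SE 0.35, n = 5 pairs), and by -1.07 with normexp.

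**Figure D2:**
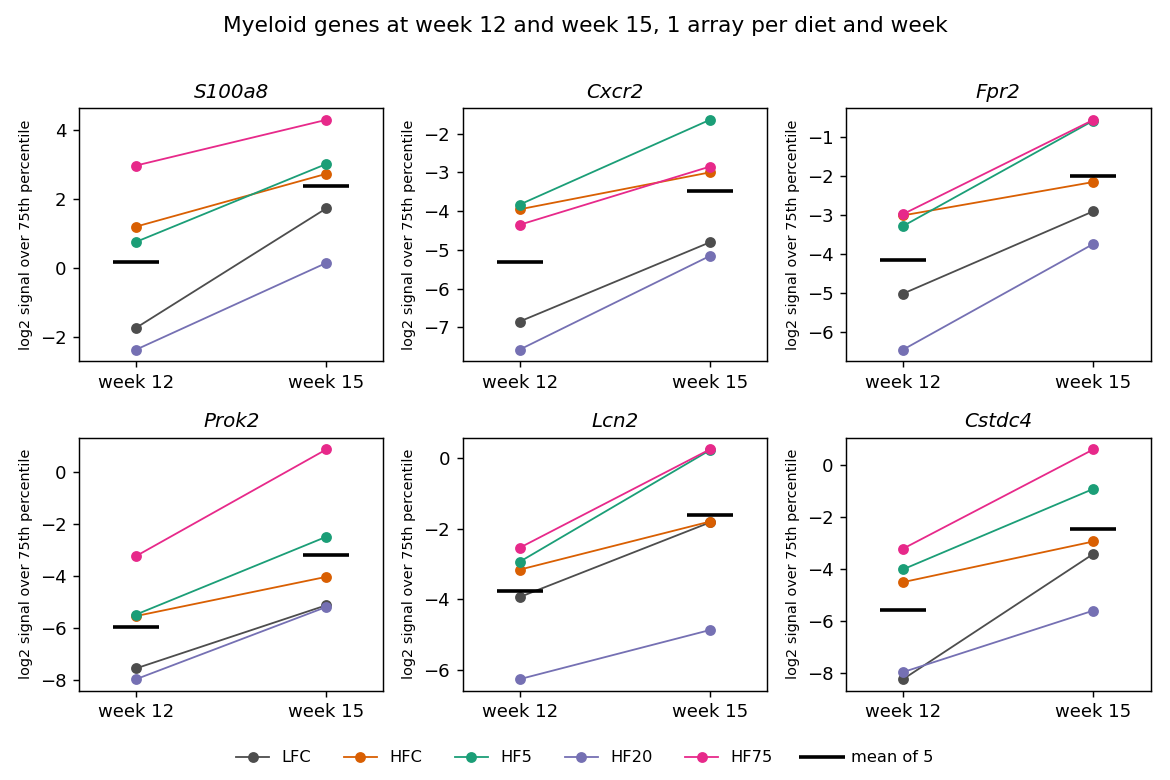
Log2 level (signal over the array's 75th percentile) of 6 myeloid genes at week 12 and week 15, with a coloured line for each diet joining its 2 arrays and a black bar for the mean of 5. In all 6 genes each of the 5 lines ends higher at week 15, and the 2 weeks overlap.

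The neutrophil list holds 10 genes, and 6 of them were higher at week 15 at an unadjusted p under 0.05, against 2.30% of all genes. 4 stood higher at week 15 in 5 of 5 pairs (S100a8, S100a9, Retnlg and Ly6g), against 3.43%, and 0 passed the adjusted test. The median difference of the list was -1.48, against 0.03 over all genes. It kept this direction under every scaling and without each pair, and was -0.98 without the LFC and HF20 pairs and -0.59 with normexp. By diet the medians were -3.11, -2.07, -0.57, -0.98 and 0.06, so in HF75 the list as a whole did not stand higher at week 15. Retnlg, a resistin-like protein of neutrophils, was at -4.32, -0.41, -1.23, -4.24 and 0.17 at week 12 and at -0.25, -0.27, 0.72, -2.15 and 2.43 at week 15. Every pair pointed the same way, with a small step of 0.14 in HFC, and the weeks overlapped. Csf3r, the receptor for granulocyte colony-stimulating factor, differed by -1.56 (SE 0.47, n = 5 pairs) and stood higher at week 15 in 4 of 5 pairs. Ltf, the iron-binding protein lactoferrin of secondary granules, differed by -2.26 (SE 0.72, n = 5 pairs), also in 4 of 5 pairs, with HF75 the exception. Mpo and Elane, which encode proteins of primary granules, differed by 0.02 and 0.35, and both were chosen for mention after their values were seen.

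Summed over the neutrophil list on the linear scale, levels were 2.71, 29.7, 27.0, 2.37 and 86.8 at week 12 and 46.2, 63.4, 61.7, 11.1 and 104 at week 15, with S100a9 the most abundant gene. S100a9 was saturated on 3 of the week 15 arrays. LFC and HF20 at week 12, 2 of the arrays with high adipocyte signal, had the lowest sums, and HF75 had the highest at both weeks. HF20 had its low sum at both weeks. The part of the adipocyte signal in these differences was not tested.

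Macrophage genes pointed the same way with smaller steps. 4 of 10 were higher at week 15 at an unadjusted p under 0.05, against 2.30% of all genes, and 4 in 5 of 5 pairs, against 3.43%. The list median was -0.37 and kept its direction under every scaling and left-out pair. Itgam, an integrin chain that neutrophils and monocytes also carry, was at -3.83, -2.20, -1.74, -4.38 and -1.92 at week 12 and at -0.97, -1.59, -0.43, -2.47 and 0.02 at week 15. HF20 at week 15 was the array that overlapped with week 12. The difference was -1.72 (SE 0.35, n = 5 pairs). Fcgr1, the high-affinity receptor for IgG, was at 0.17, 0.58, 0.82, -0.01 and 0.50 at week 12 and at 0.90, 1.13, 3.09, 0.88 and 1.66 at week 15. The 2 weeks did not overlap, and HF5 at week 15 was the highest array. The difference was -1.12 (SE 0.31, n = 5 pairs). Mrc1, the mannose receptor of resident macrophages, was at 1.42, 1.60, 0.93, 1.29 and 0.98 at week 12 and at 1.95, 2.18, 2.55, 2.03 and 1.32 at week 15. Each diet was higher at week 15, and HF75 of week 15 lay within the range of week 12. The difference was -0.76 (SE 0.26, n = 5 pairs). Cd14, the co-receptor for lipopolysaccharide, differed by -1.32 (SE 0.46, n = 5 pairs), in 4 of 5 pairs. Csf1r and Cd163 differed by 0.23 and 0.04, so the macrophage list did not move as a block. These 2 were chosen after their values were seen.

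Among genes tied to alternative activation of macrophages, 4 of 12 were higher at week 15 at an unadjusted p under 0.05, against 2.30% of all genes. The list median was -0.36, or -0.21 without the LFC pair. Mrc1 and Cd163 are in this list and in the macrophage list, so the counts of these lists are not separate. On LFC of week 12 and both HF20 arrays the mean levels of this list were 0.75, 0.77 and 0.95. The other arrays were at 1.71 to 3.01. Chil3, a chitinase-like protein, was at -0.28, 0.50, 1.85, -1.28 and 2.97 at week 12 and at 2.72, 3.09, 3.90, -0.65 and 3.69 at week 15. It stood higher at week 15 in every diet, with HF20 the lowest array at both weeks. The difference was -1.80 (SE 0.43, n = 5 pairs), or 3.48-fold. Clec10a, a lectin of macrophages and dendritic cells, differed by -0.64 (SE 0.25, n = 5 pairs) in 5 of 5 pairs.

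Some chemokine genes also stood higher at week 15. The CC chemokine list had 4 of 13 genes higher at week 15 at an unadjusted p under 0.05, against 2.30% of all genes, and 6 in 5 of 5 pairs, against 3.43%. Its median of -1.02 kept its direction without each pair and under every scaling, and was -0.805 without the LFC and HF20 pairs. In HF75, however, 4 of 13 were at least 2-fold higher at week 12 and 3 of 13 at week 15, against 13.6% and 7.28%. The arrays that stood apart (LFC and HF20 of week 12, HF20 of week 15) had the lowest mean CC levels, at -2.55, -2.07 and -1.36. The other arrays lay between 0.53 and 1.90. Ccl8, a ligand that draws monocytes and other leukocytes, was at 1.92, 1.94, 1.56, 0.34 and 2.65 at week 12 and at 2.92, 3.30, 3.72, 3.12 and 2.82 at week 15. All of week 15 lay above all of week 12. The difference was -1.49 (SE 0.40, n = 5 pairs), or 2.81-fold. Ccl6 and Ccl9, ligands of Ccr1 made by macrophages, differed by -0.81 (SE 0.25, n = 5 pairs) and -1.02 (SE 0.34, n = 5 pairs), both in 5 of 5 pairs. Ccl12, a ligand of the monocyte receptor Ccr2, differed by -1.34 (SE 0.48, n = 5 pairs), again in 5 of 5 pairs. The CXC list had 2 of 9 genes higher at week 15 at an unadjusted p under 0.05, against 2.30%. Its median of -1.94 had the other sign in HFC (0.30), and was -0.99 without the LFC pair, -0.99 with normexp and -0.66 without the LFC and HF20 pairs. On the arrays that stood apart its mean levels were -3.17, -3.04 and -2.12, against -0.21 to 2.51 on the others. Cxcl5, a ligand of Cxcr2, was at -8.23, -3.83, -4.91, -7.96 and -3.45 at week 12 and at -2.45, -3.66, 2.14, -7.67 and 0.64 at week 15. It was at the floor on LFC and HF20 of week 12 and on HF20 of week 15, and it was highest on HF5 and HF75 of week 15. Its HF20 pair therefore compares floor with floor, and no difference over the 5 pairs is given. Cxcl1, another Cxcr2 ligand, differed by -3.30 (SE 1.27, n = 5 pairs), in 4 of 5 pairs.

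Inflammatory cytokine genes and immediate-early genes also moved with the 3 arrays that stood apart. The inflammatory list had a median difference of -1.90, which was -0.70 without the LFC pair and -0.65 without the LFC and HF20 pairs, and 3 of 8 genes were higher at week 15 at an unadjusted p under 0.05, against 2.30% of all genes. Il1b, the fever-inducing interleukin, was at -6.36, 2.06, 1.98, -6.82 and 1.88 at week 12 and at 3.38, 2.75, 4.58, -2.64 and 3.05 at week 15. The 7 arrays with low adipocyte signal lay between 1.88 and 4.58 and the 3 others between -6.82 and -2.64. It was above background on 4 of 5 arrays at week 12, and the difference of raised values was -3.68 (SE 1.30, n = 5 pairs). LFC held the largest step in it. Ptgs2, the inducible enzyme of prostaglandin synthesis, was also above background on 4 of 5 arrays at week 12, and differed by -2.58 (SE 0.84, n = 5 pairs). Il1a was above background on 1 array of week 12 and 4 of week 15, and no difference is given.

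Immediate-early genes are transcribed within minutes of a stimulus and need no new protein synthesis for it. Their list had a median of -1.36, which was -0.58 without the LFC pair and -0.28 without the LFC and HF20 pairs. 4 of 21 were higher at week 15 at an unadjusted p under 0.05, against 2.30% of all genes, and 7 in 5 of 5 pairs, against 3.43%. In HF20, where both arrays stood apart, 13 of 21 were at least 2-fold higher at week 15, against 8.31%. Fos was at -2.86, 4.94, 4.61, -4.96 and 5.32 at week 12 and at 5.57, 5.41, 5.58, 2.90 and 5.62 at week 15. LFC and HF20 of week 12 lay more than 7 log2 units below the other 3 arrays of that week, HF20 of week 15 lay between, and the remaining 7 arrays fell between 4.61 and 5.62. The difference was -3.60 (SE 1.47, n = 5 pairs), and in HFC, HF5 and HF75 the steps were -0.47, -0.98 and -0.30. Dusp1, a phosphatase that turns off MAP kinases, differed by -1.54 (SE 0.53, n = 5 pairs), in 5 of 5 pairs. Btg2 and Fosb differed by -1.36 (SE 0.55, n = 5 pairs) and -1.97 (SE 0.80, n = 5 pairs), again in 5 of 5 pairs. The part of the high adipocyte signal in these differences was not tested.

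Some matrix and growth factor genes stood higher at week 15. The matrix protease and inhibitor list had a median of -0.44, which was -0.23 without the LFC pair and -0.75 without the HFC pair. By diet its median had the other sign in HFC (0.12) and HF20 (0.17). 3 of its 17 genes were higher at week 15 at an unadjusted p under 0.05, against 2.30% of all genes. In 5 of 5 pairs 3 of 17 were higher at week 15, against 3.43%. Timp1, an inhibitor of matrix proteases, was at -1.84, 1.42, 1.66, -1.58 and 1.51 at week 12 and at 2.16, 2.22, 4.17, -0.65 and 3.25 at week 15. HF5 and HF75 of week 15 were the highest arrays, and HF20 of week 15 lay among the week 12 levels. The difference was -1.99 (SE 0.50, n = 5 pairs), or 3.98-fold, in 5 of 5 pairs. The proteases Mmp3 and Mmp14 differed by -1.14 (SE 0.33, n = 5 pairs) and -0.78 (SE 0.25, n = 5 pairs), both in 5 of 5 pairs. The TGF-beta list had a median of -0.71, with -0.37 without the LFC pair and -0.48 without the LFC and HF20 pairs, and 4 of 13 genes were higher at week 15 at an unadjusted p under 0.05, against 2.30%. In HFC the median of this list had the other sign (0.26). On LFC of week 12 and both HF20 arrays its mean levels were -0.78, -0.70 and -0.20, against 0.80 to 1.77 on the others. Ccn2, the connective tissue growth factor, differed by -1.35 (SE 0.50, n = 5 pairs), in 4 of 5 pairs. Of the fibroblast and progenitor list, Pdgfra and Ly6a differed by -0.82 (SE 0.30, n = 5 pairs) and -0.65 (SE 0.21, n = 5 pairs) in 5 of 5 pairs, while the list's median of -0.22 turned to 0.09 without the LFC pair, and was -0.38 without HF20, -0.11 without HF5 and -0.04 without the LFC and HF20 pairs.

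Epithelial genes, which are expressed in skin and mammary tissue among others, differed widely between single arrays. The source of their signal was not tested. The list median was -2.39, with -1.15 with normexp and -1.63 without the LFC and HF20 pairs. Krt8, a keratin of simple epithelium, was at -6.83, -1.29, -2.90, -6.85 and 0.40 at week 12 and at 1.96, -1.83, 3.46, -2.49 and 0.44 at week 15. It was high on LFC and HF5 of week 15 and low on LFC and HF20 of week 12. The difference was -3.80 (SE 1.42, n = 5 pairs), in 4 of 5 pairs. Epcam, an epithelial adhesion molecule, was above background on 2 arrays of week 12 and 5 of week 15. In the LFC and HF5 pairs 6 of 6 tested epithelial genes were at least 2-fold higher at week 15, against 27.6% and 7.49% of all genes, while in HFC 4 of 6 were at least 2-fold higher at week 12, against 8.81%. Summed levels of the list were 0.305, 3.82, 1.25, 0.246 and 6.38 at week 12 and 29.2, 1.77, 45.6, 1.09 and 7.81 at week 15, with Krt18 the most abundant.

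**Figure D3:**
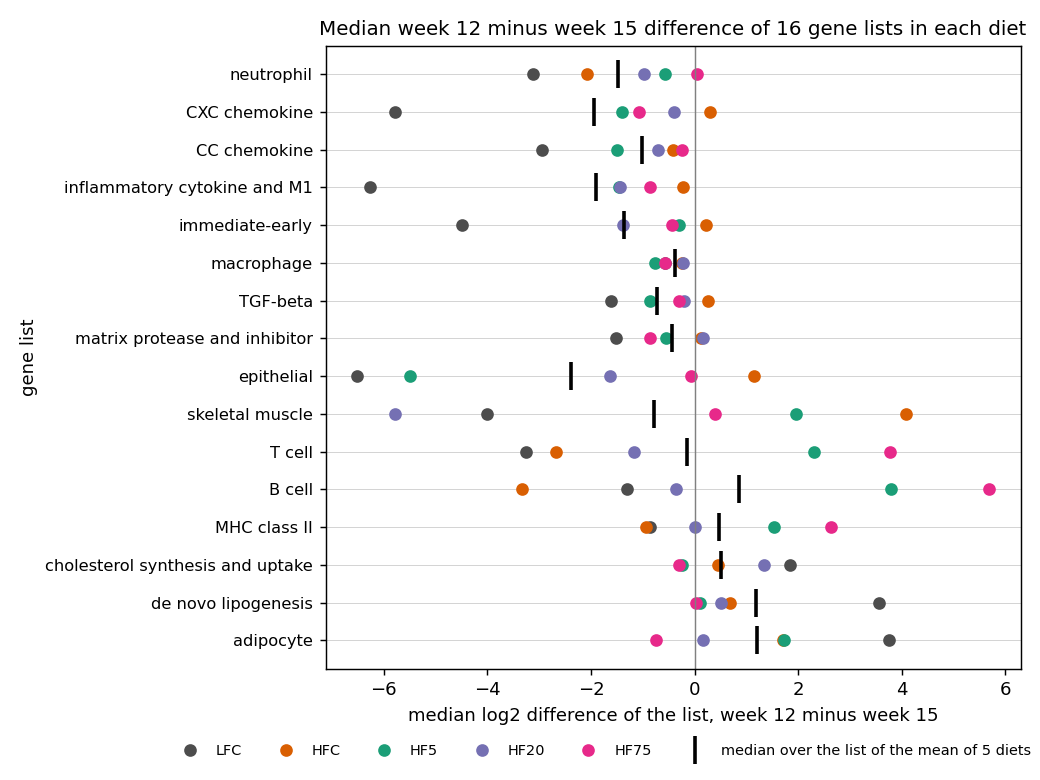
Median log2 difference, week 12 minus week 15, of 16 gene lists (vertical axis) in each of 5 diets (coloured points, 1 pair each), with a black bar for the median over the list of the mean of 5 diets. Neutrophil, CC chemokine and macrophage genes have bars at -1.48, -1.02 and -0.37, and T cell, B cell and skeletal muscle genes have diets far on both sides of 0.

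Some lipid genes stood higher at week 12, most of all in the LFC pair. The fatty acid oxidation, fatty acid uptake and brown fat lists had medians of 0.59, 0.30 and 1.16. Without the LFC pair these turned to -0.03, -0.01 and -0.01. The lipid droplet list went from 0.54 to 0.10 without that pair. In each of these lists 0 genes had an unadjusted p under 0.05, against 4.33% of all genes. The adipocyte list had a median of 1.20, with 0.66 without the LFC pair and 0.83 without the LFC and HF20 pairs. HF75 went the other way (median -0.74), with 5 of 12 genes at least 2-fold higher at week 15 and 0 at week 12, against 7.28% and 13.6% of all genes. Over the diets, 0 of 12 genes were higher at week 12 in 5 of 5 pairs, against 3.68%. At an unadjusted p under 0.05, 1 of 12 genes was higher at week 12, against 2.03%. That gene was Lep, which encodes the adipocyte hormone leptin, at 1.67, -1.97, -3.27, 3.78 and -4.33 at week 12 and at -4.01, -3.87, -5.32, 2.31 and -3.60 at week 15. The 3 arrays that stood apart were the 3 highest, and LFC held the largest step. The difference was 2.08 (SE 0.83, n = 5 pairs), in 4 of 5 pairs. The de novo lipogenesis list had a median of 1.19, which was 0.48 without the LFC pair and 0.28 without the LFC and HF20 pairs. 5 of its 16 genes (Scd1, Scd2, Dgat2, Dgat1 and Lpin1) had the higher value at week 12 in 5 of 5 pairs, against 3.68% of all genes. On HF20, 7 of the 16 genes were saturated at week 12 and 6 at week 15. The count of 5 therefore rests in part on a saturated sign, that of Scd1, and may do so for others. At an unadjusted p under 0.05, 1 of 16 was higher at week 12, against 2.03%. Scd1, which makes monounsaturated fatty acids, was at 5.54, 2.75, 2.20, 5.89 and 2.55 at week 12 and at 2.83, 1.57, 1.18, 5.69 and 2.24 at week 15. It was saturated on 2 arrays of week 12 and 1 of week 15, the 3 arrays that stood apart were the highest, and the HF20 step compares saturated values, so its sign carries no weight and no difference over the 5 pairs is given. Respiratory chain and ATP synthase genes had a median of 0.52, or 0.10 without the LFC pair, and 5 of 27 stood higher at week 12 in 5 of 5 pairs, against 3.68%, with 0 of 27 at an unadjusted p under 0.05, against 4.33%. Without the LFC and HF20 pairs the median was 0.16. On HF20, 6 of these 27 genes were saturated at week 12 and 8 at week 15, so signs in that pair may compare saturated values. Among the 5, Ndufb8, a subunit of complex I, was saturated on 3 arrays, and Atp5d, a subunit of ATP synthase, differed by 0.73 (SE 0.38, n = 5 pairs).

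The 10 genes named on the week 12 side were Olfr601, LOC100047291, Gm3337, Mapk8ip1, 4930451G09Rik, Mief2, LOC100041483, Twnk, Gm6515 and LOC100044218. 2 of them act in mitochondria. Mief2, an outer membrane protein that recruits the fission machinery, was at -2.43, -4.44, -3.42, -3.04 and -4.28 at week 12 and at -5.51, -6.00, -4.95, -4.60 and -5.12 at week 15. The 2 weeks did not overlap, and LFC had the largest step. The difference was 1.71 (SE 0.35, n = 5 pairs), or 3.27-fold. Twnk, the helicase that unwinds mitochondrial DNA, was at -2.50, -2.78, -1.58, -2.27 and -1.50 at week 12 and at -3.43, -3.29, -2.65, -3.79 and -2.81 at week 15. HFC of week 12 fell just below HF5 of week 15, which was the one overlap. The difference was 1.07 (SE 0.23, n = 5 pairs), or 2.10-fold. Mapk8ip1, a scaffold protein of JNK signalling, was at 0.17, -0.16, -0.13, -2.92 and -0.01 at week 12 and at -1.72, -1.49, -1.38, -3.66 and -0.96 at week 15. HF20 was low at both weeks and the other 4 diets of week 12 lay above all of week 15. The difference was 1.23 (SE 0.25, n = 5 pairs), or 2.35-fold. The other 7 were at mean levels below -3.50 at week 12. Olfr601 and LOC100044218 were above background on 3 of 5 arrays at week 12 and 0 of 5 at week 15, and in the HFC and HF75 pairs both weeks were at the floor, so no difference is given. 4930451G09Rik differed by 1.68, and by 1.04 with normexp.

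3 of the 10 genes named on the week 15 side are not myeloid markers. Dnah6, a motor protein of cilia, was at -5.82, -6.19, -5.17, -7.21 and -5.36 at week 12 and at -4.27, -4.67, -3.24, -4.80 and -2.95 at week 15. It was above background on 3 of 5 arrays at week 12 and 5 of 5 at week 15, so no exact difference can be read. The weeks did not overlap, yet all levels were low, and the difference of -1.97 (SE 0.25, n = 5 pairs) became -0.07 with normexp. Rspo3, a secreted amplifier of Wnt signals, was above background on 0 of 5 arrays at week 12 and 4 of 5 at week 15, and its direction reversed with normexp, to 0.34. Flrt2, a cell-surface guidance protein, was at -3.15, -1.60, -2.25, -3.15 and -3.16 at week 12 and at -1.56, -0.44, -0.86, -1.97 and -2.03 at week 15. Each diet was higher at week 15, with overlap between the weeks. The difference was -1.29 (SE 0.20, n = 5 pairs), or 2.44-fold, and -0.78 with normexp. All 20 named genes had adjusted p = 0.842 in limma, and across the other settings adjusted p for them ran from 0.258 to 0.997.

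The pairs differed widely in how far their 2 weeks lay apart. The LFC pair sets an array that stood apart against one that did not, and in HF20 both arrays stood apart. With 1 array per diet and week, diet and these arrays cannot be told apart. In LFC, 10121 of 21247 genes (47.6%) were at least 2-fold apart, with 20.0% higher at week 12 and 27.6% higher at week 15. HFC had 16.4% at least 2-fold apart (8.81% higher at week 12 and 7.59% at week 15), and this share was 37.9% with normexp. HF5 had 21.6% (14.1% and 7.49%), HF20 had 12.8% (4.48% and 8.31%) and HF75 had 20.9% (13.6% and 7.28%), and these 3 shares were 11.6%, 5.82% and 11.4% with normexp. Across genes, the Spearman correlation between the weeks was 0.855 in LFC and 0.953 to 0.972 in the other diets. The week differences of different diets shared little. Pearson's r across 21229 genes was 0.395 between HF5 and HF75 and 0.327 across 21240 genes between LFC and HF20, and in the other 8 pairs of diets it lay between -0.207 and 0.08. Genes are not independent replicates, so these values are descriptive. HFC and HF5 shared a slide at each week, and their r was 0.08. Fitted with slide as a random block, the correlation within a slide was 0.538, which is another measure.

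In LFC, 20 of 21 immediate-early genes, 11 of 11 skeletal muscle genes and 8 of 9 endothelial genes were at least 2-fold higher at week 15, against 27.6% of all genes. On the other side, 10 of 12 adipocyte genes and 16 of 16 de novo lipogenesis genes were at least 2-fold higher at week 12, against 20.0%. Adipocyte genes did so too in HFC (10 of 12, against 8.81%) and HF5 (9 of 12, against 14.1%). Interferon-stimulated genes, induced by viral RNA sensing and by interferons, were at least 2-fold higher at week 15 for 14 of 18 in LFC and for 11 of 18 in HF5, against 27.6% and 7.49% of all genes, and 0 of 18 had an unadjusted p under 0.05 over the 5 diets. Rsad2, an antiviral enzyme from this list, was at its highest on HF5 and LFC of week 15 (3.14 and 2.34), and HFC alone was higher at week 12. The difference was -1.49 (SE 0.64, n = 5 pairs), and the list median was -0.43, with -0.15 without the LFC pair and -0.73 without the HFC pair.

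Skeletal muscle genes differed in opposite directions between diets. 11 of 11 skeletal muscle genes were at least 2-fold higher at week 12 in HFC, against 8.81% of all genes in that pair, and 10 of 11 in HF5, against 14.1%. In LFC 11 of 11 and in HF20 9 of 11 were at least 2-fold higher at week 15, against 27.6% and 8.31%. Myh2, a fast myosin heavy chain, was at -4.10, 5.01, 0.17, -1.97 and 0.16 at week 12 and at 0.47, 0.87, -0.96, 3.35 and 0.74 at week 15. HFC of week 12 and HF20 of week 15 were the 2 highest arrays, and LFC of week 12 was the lowest. Tnnt3, a troponin of fast fibres, was at -5.64, 5.10, 2.29, -3.53 and 2.74 at week 12 and at -0.94, 1.27, 0.33, 4.64 and 1.59 at week 15. It kept the same order at the top. Summed skeletal muscle levels were 1.04, 548, 91.6, 4.34 and 104 at week 12 and 16.9, 43.6, 21.8, 276 and 63.1 at week 15, with Tnnc2 the most abundant gene. The list had no direction common to the diets. Its median of -0.78 turned to 0.55 without the HF20 pair, to 0.03 without the LFC pair and to 2.14 without both, and was -1.39 without the HF5 pair and -1.95 without the HFC pair.

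Lymphocyte genes also differed in opposite directions between diets. In HF5 9 of 9 T cell genes and in HF75 7 of 9 were at least 2-fold higher at week 12, against 14.1% and 13.6% of all genes. In HFC 9 of 9, in LFC 7 of 9 and in HF20 5 of 9 were at least 2-fold higher at week 15, against 7.59%, 27.6% and 8.31%. Cd3d, a chain of the T cell receptor complex, was at -3.91, 0.01, 2.33, -3.13 and 2.48 at week 12 and at 0.06, 2.81, -0.22, -0.93 and -1.64 at week 15. HF5 and HF75 of week 12 and HFC of week 15 were the 3 highest arrays. B cell genes followed, with 6 of 6 at least 2-fold higher at week 12 in both HF5 and HF75 and 6 of 6 in HFC and 4 of 6 in LFC at least 2-fold higher at week 15. HF20 had 1 of 6 on each side. Cd79b, a signalling chain of the B cell receptor, was at -2.37, -0.35, 3.20, -1.11 and 4.30 at week 12 and at -0.87, 3.35, -0.73, -0.08 and -2.13 at week 15. It had the same 3 arrays on top. In both HF5 and HF75 at once, 7 of 9 T cell genes and 6 of 6 B cell genes were at least 2-fold higher at week 12, against 6.47% of all genes. At least 2-fold higher at week 15 in both were 0 of these genes, against 1.46%.

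The lymph node list had 5 of 5 genes at least 2-fold higher at week 15 in HFC and 3 of 5 in LFC, against 7.59% and 27.6% of all genes. At least 2-fold higher at week 12 were 3 of 5 in HF5 and 2 of 5 in HF75, against 14.1% and 13.6%. Its median of -0.25 turned to 0.59 with normexp, and was -1.03 without HF75 and -0.02 without HFC. Glycam1, a mucin of high endothelial venules in lymph nodes, was at -8.23, -2.45, 3.79, -7.96 and 4.08 at week 12 and at -2.40, 3.68, -0.61, -7.67 and -4.20 at week 15, and was chosen after its values were seen. It was above 3.60 on HF5 and HF75 of week 12 and HFC of week 15, and at the floor on LFC and HF20 of week 12 and HF20 of week 15. The part of lymph node tissue in the lymphocyte differences was not tested. Over the 5 diets the T cell list had a median of -0.15, which turned to 0.42 without the LFC pair and also without the HFC pair, and was 0.00 without HF20, -0.94 without HF5, -1.14 without HF75 and 1.16 without the LFC and HF20 pairs. The B cell list had a median of 0.85, which turned to -0.37 without HF75, and was 0.03 without HF5, 1.84 without HFC, 1.36 without LFC and 1.94 without the LFC and HF20 pairs. Class II genes, which present antigen on B cells, dendritic cells and macrophages, had a median of 1.53 in HF5 and 2.64 in HF75, and of -0.85 in LFC and -0.94 in HFC. Over the diets the median was 0.47, which turned to -0.17 without HF75, and was 0.20 without HF5, 0.82 without HFC, 0.80 without LFC and 1.04 without the LFC and HF20 pairs. With quantile normalization the class II median was 0.29. H2-Aa, which encodes a class II chain, was at 1.51, 1.98, 2.54, 1.40 and 1.98 at week 12 and at 1.09, 2.58, 1.61, 1.00 and -0.81 at week 15. HF75 of week 15 was the lowest array. In the cell cycle list 10 of 23 genes in HF5 and 15 of 23 in HF75 were at least 2-fold higher at week 12, against 14.1% and 13.6% of all genes, and 8 of 23 in both, against 6.47%. In LFC 14 of 23 and in HFC 10 of 23 were at least 2-fold higher at week 15, against 27.6% and 7.59%. Bub1, a checkpoint kinase of mitosis, differed by 0.61 (SE 0.21, n = 5 pairs) and was the one gene of that list with the same sign in 5 of 5 pairs.

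Genes of cholesterol synthesis and uptake were high at week 12 in the LFC and HF20 pairs. 11 of 19 were at least 2-fold higher at week 12 in LFC and 11 of 19 in HF20, against 20.0% and 4.48% of all genes. 9 of 19 were so in both, against 1.44%, and 5.32% of all genes were at least 2-fold higher at week 15 in both. The median over 5 diets was 0.50, with 0.20 without the LFC pair, 0.83 without HF5, 0.81 without HF75 and -0.09 without the LFC and HF20 pairs. Mvk, mevalonate kinase, was at -1.09, -2.33, -2.80, 0.39 and -2.52 at week 12 and at -2.94, -2.95, -3.18, -0.96 and -2.99 at week 15. LFC and HF20 of week 12 and HF20 of week 15 were the 3 highest arrays, and each diet was higher at week 12. The difference was 0.93 (SE 0.29, n = 5 pairs). Mvd, which makes isopentenyl diphosphate, was at 0.41, -1.51, -1.52, 1.05 and -2.15 at week 12 and at -2.17, -1.56, -2.12, -2.10 and -2.01 at week 15. LFC and HF20 of week 12 stood apart from the other 8 arrays, HF20 of week 15 included. Lss, which closes the sterol rings, was at 1.07, -3.76, -3.38, -0.61 and -3.36 at week 12 and at -4.14, -3.53, -3.75, -2.66 and -4.17 at week 15. LFC of week 12 was the highest, by more than 1 log2 unit. Fdft1, squalene synthase, differed by 1.14 (SE 0.52, n = 5 pairs), in 4 of 5 pairs.

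Promoter sequence was read for this list and for the neutrophil list, both chosen after their values were seen. The windows were the 250 bases before each gene's start, from RefSeq on GRCm38.p6. The letters CCAAT, bound by the factor NF-Y that works beside sterol-sensing SREBP-2, were searched on both strands (ATTGG on the reverse). Of 19 cholesterol genes 12 had a promoter entry, and CCAAT was in 12 of 12 (100%), against 33.8% of all 32851 promoters and 5 of 10 (50%) neutrophil promoters. The letters TTGCNNAA, a core of C/EBP factors that drive granule genes, were also searched on both strands (TTNNGCAA on the reverse). They were in 5 of 10 neutrophil promoters (50%), those of Ltf, Ly6g, Ngp, Retnlg and S100a9, against 9.56% of all promoters and 2 of 12 (16.7%) cholesterol promoters. A listed gene counted if any of its promoter entries matched, while the share of all promoters was taken over entries. A match describes letters only. The promoters of Mvd (chr8:122443423-122443672, minus strand), Mvk (chr5:114444019-114444268, plus strand) and Lss (chr10:76531355-76531604, plus strand) are shown 5′ to 3′ with CCAAT or ATTGG in capitals.
Mvd: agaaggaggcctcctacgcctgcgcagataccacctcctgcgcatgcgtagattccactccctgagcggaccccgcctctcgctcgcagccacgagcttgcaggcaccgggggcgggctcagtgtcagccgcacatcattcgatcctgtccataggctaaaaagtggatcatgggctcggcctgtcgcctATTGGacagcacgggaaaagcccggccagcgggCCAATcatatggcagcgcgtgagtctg
Mvk: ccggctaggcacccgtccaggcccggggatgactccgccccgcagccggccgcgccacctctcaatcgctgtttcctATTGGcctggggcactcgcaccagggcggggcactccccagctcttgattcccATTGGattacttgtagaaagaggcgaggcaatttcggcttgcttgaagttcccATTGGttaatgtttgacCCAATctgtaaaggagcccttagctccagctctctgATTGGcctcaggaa
Lss: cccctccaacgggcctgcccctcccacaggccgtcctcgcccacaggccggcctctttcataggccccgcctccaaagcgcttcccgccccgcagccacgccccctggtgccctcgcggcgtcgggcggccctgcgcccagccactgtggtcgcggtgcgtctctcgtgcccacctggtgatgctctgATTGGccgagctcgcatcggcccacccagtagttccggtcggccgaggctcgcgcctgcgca

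The promoters of Ltf (chr9:111019042-111019291, plus strand) and Retnlg (chr16:48872358-48872607, plus strand) are shown for 2 genes of the neutrophil list, with the C/EBP letters in capitals.
Ltf: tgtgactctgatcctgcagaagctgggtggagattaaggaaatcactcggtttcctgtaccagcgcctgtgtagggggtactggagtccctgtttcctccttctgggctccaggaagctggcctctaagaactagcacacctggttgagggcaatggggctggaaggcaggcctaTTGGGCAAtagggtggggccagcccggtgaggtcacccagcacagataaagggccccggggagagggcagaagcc
Retnlg: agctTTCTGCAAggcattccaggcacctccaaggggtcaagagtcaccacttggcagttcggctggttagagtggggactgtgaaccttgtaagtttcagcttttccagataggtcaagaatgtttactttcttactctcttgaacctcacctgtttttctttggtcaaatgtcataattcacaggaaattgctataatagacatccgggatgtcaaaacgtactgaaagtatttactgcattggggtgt

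Whether Kal-1 went with a different step between the weeks was tested as an interaction, with 3 pairs on Kal-1 against 2 without. The 2 pairs without it were LFC and HFC, and the 3 Kal-1 diets were all high in fat. The LFC pair also holds an array that stood apart, that of the earlier week. Kal-1, dietary fat and that array therefore cannot be told apart in this test. 0 of 21254 genes (0%) passed in limma, 1357 (6.38%) had an unadjusted p under 0.05, and the smallest adjusted p was 0.423, with 0.184 to 0.477 in 3 other settings. For S100a8 the step differed by 0.47 and for Prok2 by -1.32 (Kal-1 diets minus the others), each with 5 of 5 pairs higher at week 15.

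Levels of the named genes were also read on 19 arrays of weeks 0, 3, 6, 9 and 18. The median of the other weeks lay nearer to week 15 for 9 of the 10 genes named on the week 12 side, and nearer to week 12 for 8 of the 10 on the week 15 side. The genes were chosen for their difference between these weeks and several were above background mainly in the higher week, so these counts carry little weight. Cxcr2 had a median of -6.54 over 5 arrays at week 6 and -6.84 over 5 at week 9, beside -4.36 at week 12 and -3.00 at week 15. Cstdc4 had a median of -5.79 at week 6 and -6.99 at week 9, beside -4.50 at week 12 and -2.93 at week 15. Both genes were lowest at weeks 6 and 9. Of the 3 arrays of week 18, LFC stood apart, with mean levels of -3.21 for fibroblast and progenitor genes, -3.58 for endothelial genes, 5.21 for erythroid genes and 5.07 for neutrophil genes. On LFC, HFC and HF5 of week 18 Cxcr2 was at 2.45, -2.91 and -2.62, and Cstdc4 at -0.24, -1.94 and -2.03. Fpr2 had medians of -4.45 at week 6 and -4.52 at week 9. Dnah6 took another course, with -1.44 at week 6, above week 15, and -6.66 at week 9. The high adipocyte levels of the 3 arrays that stood apart had company at week 9, where LFC, HFC, HF5 and HF20 were at 5.15, 4.82, 4.99 and 5.07. The mean immediate-early levels of those 4 arrays were -0.55, 1.38, -0.36 and -0.19.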

How the data were processed

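Per the file headers, Feature Extraction 10.5.1.1 made the deposited intensity values (the processing notes name 9.1), subtracting background and detrending within each array, with no normalization between arrays. The authors' table, log2 ratios to LFC within a time point from GeneSpring GX, was not used here. Members and gene lists were chosen with earlier results of these data known.

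Each array had 43803 non-control spots. Log2 intensity was shifted by the array's 75th percentile, spots marked as outliers were dropped, repeat spots averaged, and values not well above background raised to the array's lowest level that was. 40628 probes gave 29147 gene names, by accession for 28136 probes, symbol for 4982, synonym for 1406 and file annotation for 6104. The probe with the highest mean stood for a gene. A gene entered if well above background on at least 50% of either week's arrays. Median signal over background was 3.50 to 5.66 at week 12 and 3.79 to 7.01 at week 15, and the number of arrays limits the precision.

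limma 3.58.1 in R 4.3.3 (with package data.table, version 1.17.8) fitted diet plus week, contrast week 12 minus week 15, with Benjamini-Hochberg adjustment over 21254 genes, and an interaction of week with Kal-1. Named genes are 10 per direction by moderated statistic with one sign in 5 of 5 pairs, none past the threshold, and up to 4 members of each list described, by the size of that statistic. Other members of lists were named after their values were seen. Some members of the lists are not reported here. 21 marker lists and 31 function lists were used. Alternatives were other scalings and filters, no block, slide as a random block, array weights, each pair left out, and, both added after seeing the data, a replicate block and 2 pairs left out together. Other work was in Python 3.11.15 (numpy 2.4.6, pandas 2.3.3, scipy 1.17.1, matplotlib 3.10.9). Arrays of days 1 to 14 were not used here, nor were the HF20 and HF75 arrays of week 18, whose labels conflict, and the LFC array of week 3, with 16.84% of spots well above background, was left out of the comparison with other weeks.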

Additional observations from a re-analysis of the deposited data

Results flagged for a closer look

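5 of 53 groups of 5 values held 1 value far from the other 4, by the gap to the nearest value over the whole range. Chance flags about 1 in 20 groups. Xist, the RNA of the inactive X chromosome, was at -4.03 on HF20 of week 12 and at -7.39 to -6.51 on the other arrays of that week, where it was not above background, so those 4 values lie at or near the array floors. Among the arrays of week 15, HF20 lay apart in 3 lists. Its mean smooth muscle and pericyte level was 1.82, against 3.82 to 4.41 on the other 4. Its mean Schwann cell level was -1.89, against 1.16 to 2.23. Its mean level of Y chromosome genes was -0.887, against -1.41 to -1.31. The share of genes at least 2-fold apart between the weeks was 47.6% in LFC, against 12.8% to 21.6% in the other 4 diets. With normexp the LFC share was 38.3% and the HFC share 37.9%, so there LFC did not stand apart. Y chromosome genes were above background on all 10 arrays.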

How the results depend on the processing

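The counts of 0 genes past the threshold in limma stood in all 18 other settings (336 to 1975 genes at an unadjusted p under 0.05) and in the 3 settings tried for Kal-1. Of 300 values of the 20 named genes in 15 settings, 0 passed. The genes were chosen for one sign in 5 of 5 pairs, so only the 4 other scalings could readily reverse them, and there Rspo3 alone reversed, to 0.34 with normexp background correction. For this the cause was not tested. With normexp the median of all genes was 0.19, and without a filter 0.14, beside 0.03 here. Shares of genes at least 2-fold apart moved by more than their counting interval. With normexp they were 38.3%, 37.9%, 11.6%, 5.82% and 11.4% (LFC, HFC, HF5, HF20 and HF75). Without a filter they were 40.8%, 14.5%, 19.7%, 11.7% and 18.5%, and with genes above background on all 10 arrays 46.2%, 12.1%, 16.4%, 10.54% and 16.4%, where other genes are counted. Quantile normalization gave 49.3% in LFC, 15.6% in HFC and 20.0% in HF5. Leaving low values unraised gave 17.4% in HFC, 13.3% in HF20 and 22.1% in HF75. Centring on probes above background on all 10 arrays gave 20.5% in HF5. The cause was not tested. Of 51 list medians, 8 changed sign with a scaling and 25 without 1 pair. Signal over background, 3.50 to 7.01, limits the dim genes.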

Other observations

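Glucocorticoid and metallothionein genes, a set that responds to stress hormones and metals, had a median week 12 minus week 15 difference of -0.66 (-0.25 without the LFC pair and -0.31 without the LFC and HF20 pairs). Zbtb16, a glucocorticoid-induced transcription factor, was at 1.00, 2.52, 2.38, 2.18 and 0.85 at week 12 and at 2.64, 2.64, 3.07, 2.74 and 2.85 at week 15. Every diet was higher at week 15, and the weeks did not overlap. Collagen and matrix genes had a median of -0.30 (-0.58 without the HF20 pair, -0.20 without the HF5 pair and -0.57 without the LFC and HF20 pairs). Among them Col14a1, a fibril-associated collagen, Tnc, a matrix glycoprotein of remodelling tissue, and Thbs1, thrombospondin 1, differed by -1.12, -1.54 and -2.07, each in 4 of 5 pairs. Complement genes had a median of -0.29 (-0.46 without the LFC and HF20 pairs), and C1ra, the protease that starts the classical pathway, differed by -0.56 (SE 0.22, n = 5 pairs) in 5 of 5 pairs. In the Wnt list, with a median of -0.43 (-0.05 without the LFC pair, -0.65 without HF75, -0.15 without the LFC and HF20 pairs and -0.10 with normexp), Dkk3 differed by -1.41 (SE 0.51, n = 5 pairs) in 5 of 5 pairs. None of these passed the adjusted test, and the smallest adjusted p of any gene was 0.842.

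Clock genes pointed both ways. Dbp, an output gene of the clock, was at 4.44, 5.07, 4.24, 5.80 and 3.20 at week 12 and at 2.08, 4.07, 3.48, 5.30 and 3.75 at week 15, higher at week 12 in 4 of 5 diets. Arntl, a core activator that peaks when Dbp is low, was at -2.20, -3.19, -1.94, -4.64 and -1.19 at week 12 and at -0.47, -1.76, -1.77, -3.56 and -1.60 at week 15, higher at week 15 in 4 of 5 diets. The list median was -0.04 and turned to 0.16 with normexp, to 0.06 without the HF5 pair, to 0.07 without HF75 and to 0.01 without LFC. It was -0.19 without HFC and -0.16 without HF20. Adm, the vasodilator adrenomedullin from the hypoxia and glycolysis list, was at -2.12, 1.03, 0.53, -1.08 and -0.34 at week 12 and at 1.05, 1.38, 2.10, -0.67 and 0.86 at week 15. It stood higher at week 15 in 5 of 5 diets, with a difference of -1.34 (SE 0.45, n = 5 pairs), while the list's median of 0.19 turned to -0.14 without the LFC pair and was 0.33 without HF75, 0.10 without HFC and -0.20 without the LFC and HF20 pairs. The heat shock gene Hspa1a was at -0.62, 6.33, 6.53, -0.53 and 6.40 at week 12 and at 6.04, 5.71, 6.01, -0.62 and 6.37 at week 15. It was saturated on 1 array of week 12 and 3 of week 15. The 3 arrays with high adipocyte levels lay between -0.62 and -0.53 and the other 7 between 5.71 and 6.53.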
